A study of Homo sapiens with 12 samples.

Results

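The genes described here encode mitochondrial ribosomal proteins. They were taken as every row of the deposited expression table whose gene symbol begins with MRPL or MRPS followed by a digit, leaving out pseudogenes (symbols ending in P and digits) and symbols with a hyphen. This gave 78 of 58302 rows, of which 49 were MRPL genes, named for the large subunit, and 29 were MRPS genes, named for the small subunit. The table holds RNA sequencing of 12 libraries, 3 from each of 4 lines. TPC1, a human cell line of papillary thyroid carcinoma, is labelled wt and untreated, and D11, WB1 and TD5 are lines derived from it and labelled Dicer1 (+/-). The derived lines were obtained by transient transfection of TPC1 with a CRISPR/Cas9 plasmid carrying a guide to an exon of Dicer1, then single-cell sorting, so that each is 1 clone and an effect of the genotype cannot be told apart from other differences between 1 clone and its parent. All 4 lines share the TPC1 background and the culture medium. Nothing in the labels says that the 3 libraries of a line came from separate cultures, so p-values measure only the spread between these libraries, which may be technical.

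The mitochondrial ribosome translates the few messages encoded by mitochondrial DNA, which are core subunits of the respiratory chain and of ATP synthase. Its RNAs are encoded in the mitochondrial genome, whereas its proteins are all encoded in the nucleus, made in the cytosol and imported. Many of the proteins have bacterial counterparts, and others are particular to mitochondria. Dicer1 is the ribonuclease that cuts precursor hairpins into mature microRNAs, which lower the stability and translation of messages that they match. The comparison of each clone with TPC1 asks how the messages for these ribosomal proteins stood in cells labelled as carrying 1 altered copy of Dicer1.

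Promoters of this gene family are known for binding sites of GABP, an ETS-family activator of nuclear genes for mitochondria, and of YY1, a zinc finger factor whose site often lies just after the start of transcription. RefSeq promoters on GRCh38.p14, from 250 bases before to 50 bases after the start, were found for 69 of the 78 genes, giving 85 promoters. The letters CCGGAAG, an ETS/GABP core, stood on either strand in 33 of these 85 promoters, or 38.8%, against 10.3% of all 35116 promoters and 16.4% of the 14817 promoters of genes that passed the expression filter. The letters AAGATGGC, a YY1 core, stood in 23 of the 85, or 27.1%, against 2.89% and 4.72%. The palindromic NRF1 core was found in 1 promoter, that of MRPL17, or 1.2%, against 1.24% and 1.9%. These are matches of letters and not measured binding, and a promoter can hold more than 1 of the motifs. Promoters of 3 genes that the results turn on are shown 5′ to 3′ on the strand of the gene, with CCGGAAG, AAGATGGC and their reverse complements in capitals. They lie at chr19:38930694-38930993 (plus strand) for MRPS12, at chr11:65122071-65122370 (plus strand) for MRPL49 and at chr6:43687742-43688041 (minus strand) for MRPS18A.
MRPS12: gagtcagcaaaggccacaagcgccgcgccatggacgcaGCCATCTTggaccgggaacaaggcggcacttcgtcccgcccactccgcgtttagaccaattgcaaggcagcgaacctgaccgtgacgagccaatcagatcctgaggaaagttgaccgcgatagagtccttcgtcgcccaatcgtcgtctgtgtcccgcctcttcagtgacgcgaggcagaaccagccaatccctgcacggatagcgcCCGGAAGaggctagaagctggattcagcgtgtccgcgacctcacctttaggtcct
MRPL49: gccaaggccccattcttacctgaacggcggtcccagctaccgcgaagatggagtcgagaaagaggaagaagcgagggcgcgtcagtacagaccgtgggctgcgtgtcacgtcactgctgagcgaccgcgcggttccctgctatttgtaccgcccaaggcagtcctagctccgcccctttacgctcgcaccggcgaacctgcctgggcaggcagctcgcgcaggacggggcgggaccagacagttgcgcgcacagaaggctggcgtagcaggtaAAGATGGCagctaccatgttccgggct
MRPS18A: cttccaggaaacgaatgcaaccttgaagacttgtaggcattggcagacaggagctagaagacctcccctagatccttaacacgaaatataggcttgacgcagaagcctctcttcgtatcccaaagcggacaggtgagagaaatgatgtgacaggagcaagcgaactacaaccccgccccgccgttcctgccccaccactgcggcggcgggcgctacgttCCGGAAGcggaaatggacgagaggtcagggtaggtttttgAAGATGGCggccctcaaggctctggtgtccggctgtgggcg
The windows of MRPS12 and MRPS18A held both motifs. The window of MRPL49, which is 1 of 2 RefSeq windows for that gene, held the YY1 letters alone, just after the start. The other window, chr11:65121933-65122232, which ends 50 bases after the annotated start of the gene, held neither motif.

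Values are the authors' gene counts scaled to 20000000 aligned reads a library, called scaled reads below. The depth behind them, estimated for 11 libraries from the whole numbers that scaling leaves unused, was 12700000 to 17330000 reads, and the remaining library, TPC1 replicate 1, left no such gaps. DICER1 stood at 1360, 1129 and 1101 scaled reads in TPC1, at 977, 1051 and 1093 in D11, at 881, 939 and 815 in WB1 and at 643, 627 and 809 in TD5. Against TPC1 the log2 fold change was -0.43 in WB1 (limma with Benjamini-Hochberg adjustment over 16027 genes, adjusted p = 0.00404), -0.77 in TD5 (limma adjusted p = 9.02e-05) and -0.19 in D11, which did not pass (limma adjusted p = 0.138) except when libraries were scaled or corrected differently. Of the thyroid follicular markers PAX8 was high, at 7248 to 9879 scaled reads, TG stood at 11 to 27, and SLC5A5, TSHR and NKX2-1 were at 0 in every library. Immune PTPRC reached 3 at most and CD3E was at 0, whereas CD68 stood at 921 to 1514. Of the fibroblast markers, DCN was at 0, and LUM stood at 63 to 78 in TPC1, at 0 in D11, at 138 to 212 in WB1 and at 0 to 2 in TD5, and its part in the results was not tested.

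Messages for mitochondrial ribosomal proteins were abundant and differed little between lines. Of the 78 genes, 77 passed the filter of at least 1 per 1000000 in at least 3 libraries. MRPL23 (ENSG00000214026, chr11:1947278-1984522, plus strand) did not. It stood at 6, 5 and 8 scaled reads in TPC1, at 3, 10 and 5 in D11, at 3, 2 and 9 in WB1 and at 5, 19 and 11 in TD5. A count of 3 reads corresponds to 3.46 to 4.72 scaled reads in the libraries with an estimated depth, so that MRPL23 lay near the limit of counting in most libraries. Whether these values give the expression of MRPL23 could not be settled from the files, since how reads of overlapping genes were assigned is not given in the sources used here. Such limits cover counting error only, since the reads carry no molecular identifiers. Per 1000000 reads and per kilobase of the MANE Select transcript, the median level over the 78 genes was 40.7. MRPL51 had the highest level, 127, followed by MRPL24 with 123 and MRPL20 with 117, all of the large subunit. Apart from MRPL23, the lowest levels on that scale were 3.22 for MRPL42 and 8.72 for MRPL19, whose selected transcripts are 15557 and 7825 bases long. The second lowest and the highest of the 78 levels differed by 39.5 times. Before division by transcript length, these 2 genes, MRPL42 and MRPL51, had 50.1 and 114 per 1000000 reads.

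Summed over the 78 genes, the level per 1000000 was 4737, 4671 and 4857 in TPC1. D11 had 4506, 4675 and 4385, WB1 had 4760, 4522 and 4607, and TD5 had 4502, 4780 and 4379. The means of TPC1, D11, WB1 and TD5 were 4755 ± 94.3, 4522 ± 146, 4630 ± 121 and 4554 ± 205 (SD, n = 3 each), so the clones lay at 95.1%, 97.4% and 95.8% of TPC1 and the libraries of each clone overlapped those of TPC1. The MRPL genes summed to 2880 ± 66.7 in TPC1 and to 2739 ± 106, 2824 ± 65 and 2762 ± 134 in D11, WB1 and TD5. The MRPS genes summed to 1875 ± 27.7 in TPC1 and to 1783 ± 40.2, 1806 ± 56.7 and 1792 ± 71.6 in the clones (SD, n = 3 each). The 3 MRPS sums of D11, 1778, 1825 and 1745, lay below those of TPC1, 1871, 1849 and 1904, and the other sums of the clones overlapped TPC1. In bulk RNA a level that is lower in a share of the cells and one that is lower in all of them cannot be told apart.

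**Figure D1:**
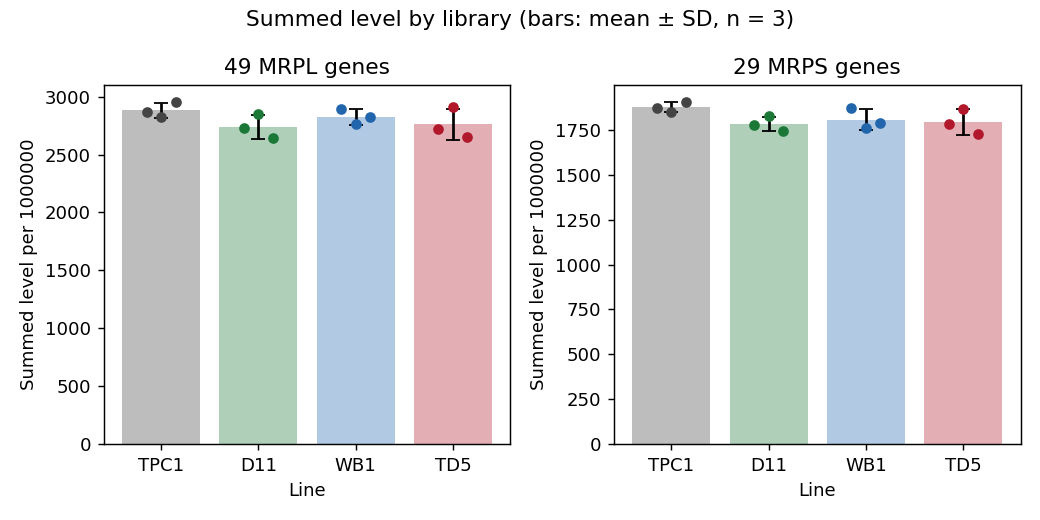
Summed level of the 49 MRPL genes (left) and the 29 MRPS genes (right), per 1000000 reads, in each line. Points are libraries, and bars with error bars are the mean ± SD over 3 libraries. The MRPL sum was 2880 in TPC1 and 2739 to 2824 in the clones, with libraries that overlap between lines.

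Single genes differed between lines by small amounts. Over the 77 tested genes, the SD between libraries of 1 line had a median of 0.092 on the log2 scale, and the range of the 4 line means ran from 0.04 to 0.55 with a median of 0.20. MRPS12 had the widest range. No member passed an adjusted p of 0.05 together with a change of at least 1.5-fold in any of the 6 comparisons between lines (limma). Over all genes tested, 4.84% did so in D11 against TPC1, 4.99% in WB1 against TPC1, 2.60% in TD5 against TPC1, 2.85% in WB1 against D11, 3.99% in TD5 against D11 and 2.33% in TD5 against WB1. The calls given below rest on the adjusted p alone. Fold changes are on the log2(value per 1000000 + 1) scale, with SE from limma.

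**Figure D2:**
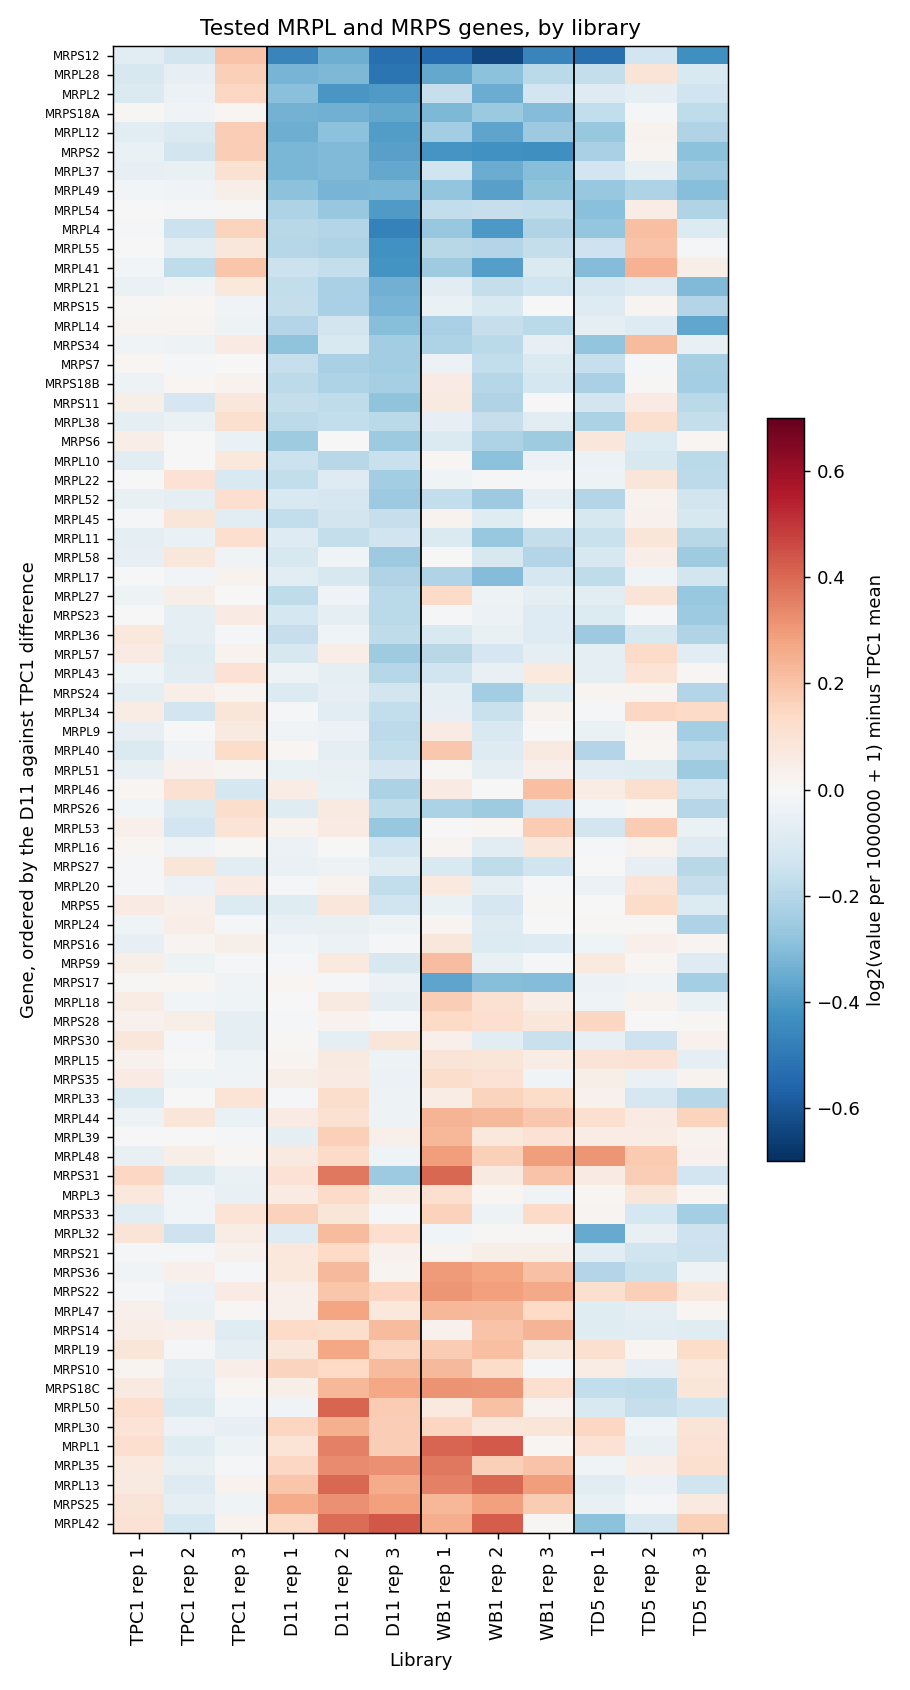
Level of each of the 77 tested genes (rows, ordered by the D11 against TPC1 difference) in each of the 12 libraries (columns), as log2(value per 1000000 + 1) minus the TPC1 mean. Blue is lower and red is higher. MRPS12, in the top row, has the widest range of line means, 0.55, and a median gene has 0.20. TPC1 replicate 3 and TD5 replicate 2 are redder than their own lines in many of the upper rows.

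In D11, more of the ribosomal protein messages fell than rose. Of the 77 genes, 15 were lower than in TPC1, or 19.5%, against 13.4% of all genes tested, and 5 were higher, or 6.49%, against 19.9%. The median log2 fold change over the members was -0.072, with 27 above 0 and 50 below, whereas the median over all genes tested was 0.054. The median over the members in single libraries, taken relative to TPC1, had an SD of 0.059 between libraries of 1 line. Medians and splits around 0, here and in the other comparisons, were not tested against that spread. With median-of-ratios scaling the split was 3 higher to 25 lower, with a correction for GC content 1 to 19, and with a correction for length 2 to 18. Such settings shift values of all genes. Shares over all genes under them are not given, here and in the other comparisons, so these splits are not read as results about the members. The largest fall was that of MRPS12, which encodes a small subunit protein at the decoding centre. It was followed by MRPL28, a large subunit protein with a bacterial counterpart, at -0.38 ± 0.086 (SE; limma adjusted p = 0.00366), and by MRPL2, a conserved protein near the peptidyl transferase centre, at -0.37 ± 0.081 (limma adjusted p = 0.00332). MRPS18A fell by 0.34 ± 0.065 (limma adjusted p = 0.00117), and MRPL12, the stalk protein that recruits translation factors, fell by 0.34 ± 0.082 (limma adjusted p = 0.00592). The 5 that rose were MRPL42, MRPS25, MRPL13, MRPL35 and MRPL30. MRPL42, of the large subunit, stood at 0.32 ± 0.117 (limma adjusted p = 0.0457), MRPL35 at 0.27 ± 0.075 (limma adjusted p = 0.0133) and MRPL30 at 0.19 ± 0.065 (limma adjusted p = 0.0331). These 3 lost the call without TPC1 replicate 2, D11 replicate 2 or D11 replicate 3, where MRPL42 had 0.26, 0.28 and 0.26, MRPL35 0.24, 0.23 and 0.24, and MRPL30 0.17, 0.16 and 0.20. MRPL42 and MRPL30 lost it also without TPC1 replicate 3, at 0.33 and 0.16, and MRPL42 without WB1 replicate 1, at 0.32. Without D11 replicate 3 the count of calls fell from 20 to 10, and without TPC1 replicate 3 to 13.

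In WB1, as many members were called lower as higher. There were 9 lower than in TPC1, or 11.7%, against 12.3% of all genes tested, and 9 higher, or 11.7%, against 18.6%. The median was -0.025 over the members, with 32 above 0 and 45 below, and 0.058 over all genes tested. The split was 3 higher to 19 lower with median-of-ratios scaling, 0 to 14 with the GC correction and 4 to 15 with the length correction. MRPS12 again had the largest fall. MRPS2, a conserved small subunit protein, fell by 0.42 ± 0.081 (limma adjusted p = 0.0013), MRPS17 by 0.32 ± 0.079 (limma adjusted p = 0.00609) and MRPS18A by 0.29 ± 0.065 (limma adjusted p = 0.00329). The largest rises were those of MRPL13, at 0.35 ± 0.068 (limma adjusted p = 0.00141), and MRPS22, a mitochondria-specific small subunit protein, at 0.29 ± 0.061 (limma adjusted p = 0.00256). They were followed by MRPS36, at 0.26 ± 0.086 (limma adjusted p = 0.0289), a name that stands for a subunit of the 2-oxoglutarate dehydrogenase complex and not for a ribosomal protein in human mitochondria. MRPL48, of the large subunit, was at 0.25 ± 0.086 (limma adjusted p = 0.0364) and MRPL35 at 0.25 ± 0.075 (limma adjusted p = 0.0205). The last 3 lost the call when certain single libraries were left out, more than 1 library for each. Without WB1 replicate 1 they had log2 fold changes of 0.24, 0.23 and 0.18 and none passed. Without TPC1 replicate 2 they had 0.28, 0.27 and 0.22, and without TPC1 replicate 3 they had 0.26, 0.26 and 0.24, and none passed in either. MRPS36 and MRPL48 failed also without TPC1 replicate 1, at 0.25 and 0.22, MRPS36 without WB1 replicate 2, at 0.25, and MRPL48 without WB1 replicate 3, at 0.23. Without TPC1 replicate 3, WB1 replicate 1 or WB1 replicate 2 the 18 calls came to 8, 10 and 9.

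In TD5, the clone with the lowest DICER1 level, few members differed from TPC1. There were 2 lower, or 2.60%, against 6.57% of all genes tested, and 0 higher (limma, adjusted p under 0.05), against 5.32%. At an unadjusted p under 0.05, 9 were lower and 0 higher, and nothing is read from this split, since the share over all genes at that threshold is not given here. The median was -0.069 over the members and 0.001 over all genes tested, with 22 above 0 and 55 below. The highest value was that of MRPL48, at 0.17 ± 0.086 (limma adjusted p = 0.207). Without TD5 replicate 2 the count of lower members was 6 in place of 2, and it was 1 without TPC1 replicate 3, TD5 replicate 1 or TD5 replicate 3.

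The 2 members lower in TD5 were MRPS12 and MRPL49, and their values in the other clones are given beside those in TD5, from comparisons that share the TPC1 libraries. MRPS12 (ENSG00000128626, chr19:38930944-38933168, plus strand) stood at 1318, 1266 and 1595 scaled reads in TPC1. It stood at 999, 1090 and 955 in D11, at 944, 884 and 1002 in WB1 and at 957, 1262 and 1026 in TD5. All 9 clone libraries lay below all 3 of TPC1, but TD5 replicate 2 missed the lowest of them by only a few reads, and TPC1 replicate 3 was well above the other two. The means were 1393 ± 177, 1015 ± 68.9, 943 ± 59.0 and 1082 ± 160 scaled reads (SD, n = 3 each). The log2 fold changes were -0.44 ± 0.10 in D11 (SE; limma adjusted p = 0.00387), -0.55 ± 0.10 in WB1 (limma adjusted p = 0.000952) and -0.36 ± 0.10 in TD5 (limma adjusted p = 0.0263). The TD5 call was lost without TPC1 replicate 3 (-0.26, limma adjusted p = 0.143), without TD5 replicate 1 (-0.28, limma adjusted p = 0.124) and without TD5 replicate 3 (-0.33, limma adjusted p = 0.0753). SARS2, the mitochondrial seryl-tRNA synthetase gene next to MRPS12, was lower in D11, at -0.31 (limma adjusted p = 0.0226), and stood at -0.12 in WB1 and -0.05 in TD5, neither of which passed.

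MRPL49 (ENSG00000149792, chr11:65122183-65127371, plus strand) encodes a mitochondria-specific protein of the large subunit. It stood at 2038, 2032 and 2126 scaled reads in TPC1, at 1688, 1645 and 1651 in D11, at 1701, 1582 and 1694 in WB1 and at 1717, 1777 and 1673 in TD5. The clone libraries lay in 1 narrow band well below TPC1. The means were 2065 ± 52.6, 1661 ± 23.3, 1659 ± 66.8 and 1722 ± 52.2 scaled reads (SD, n = 3 each), and the log2 fold changes were -0.31 ± 0.056 in D11 (SE; limma adjusted p = 0.000876), -0.31 ± 0.056 in WB1 (limma adjusted p = 0.0008) and -0.26 ± 0.056 in TD5 (limma adjusted p = 0.00624). Its exons overlap SYVN1 on the opposite strand, a gene for a ubiquitin ligase of the endoplasmic reticulum, and whether the counting used strand is not given in the sources used here. SYVN1 had 2098, 2117 and 2209 scaled reads in TPC1 and 1777 to 2067 in the clones, with log2 fold changes of -0.23 in D11 (limma adjusted p = 0.00941), -0.16 in WB1 (limma adjusted p = 0.054) and -0.14 in TD5 (limma adjusted p = 0.143). Reads of these 2 genes cannot be told apart without strand.

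In 3 further members all 9 clone libraries lay below all 3 TPC1 libraries, giving 5 of the 77 tested members with that order. That is near the 6.67% of all genes tested, so the count is not read as a result about the members. No member had all 9 above, against 5.20%. The other three encode large subunit proteins with bacterial counterparts. MRPL14 stood at 1122, 1121 and 1080 scaled reads in TPC1 and at 858 to 1054 in the clones. MRPL17 stood at 1601, 1584 and 1633 in TPC1 and at 1299 to 1574 in the clones. MRPL21 stood at 1055, 1073 and 1149 in TPC1 and at 860 to 1035 in the clones. The gaps were narrow beside the spread of the clones, and each of the 3 passed in 1 comparison only. MRPL14 passed in D11 (-0.21, limma adjusted p = 0.0457), MRPL17 in WB1 (-0.21, limma adjusted p = 0.0239) and MRPL21 in D11 (-0.25, limma adjusted p = 0.0184), and each lost its call without TPC1 replicate 3, at -0.23, -0.20 and -0.21. The MRPL14 call was lost under 13 of the 23 alternatives, among them the GC correction and leaving out any 1 library of TPC1, D11 or WB1. That of MRPL21 was lost also with the GC correction and without D11 replicate 3, and that of MRPL17 without WB1 replicate 1 or 2.

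**Figure D3:**
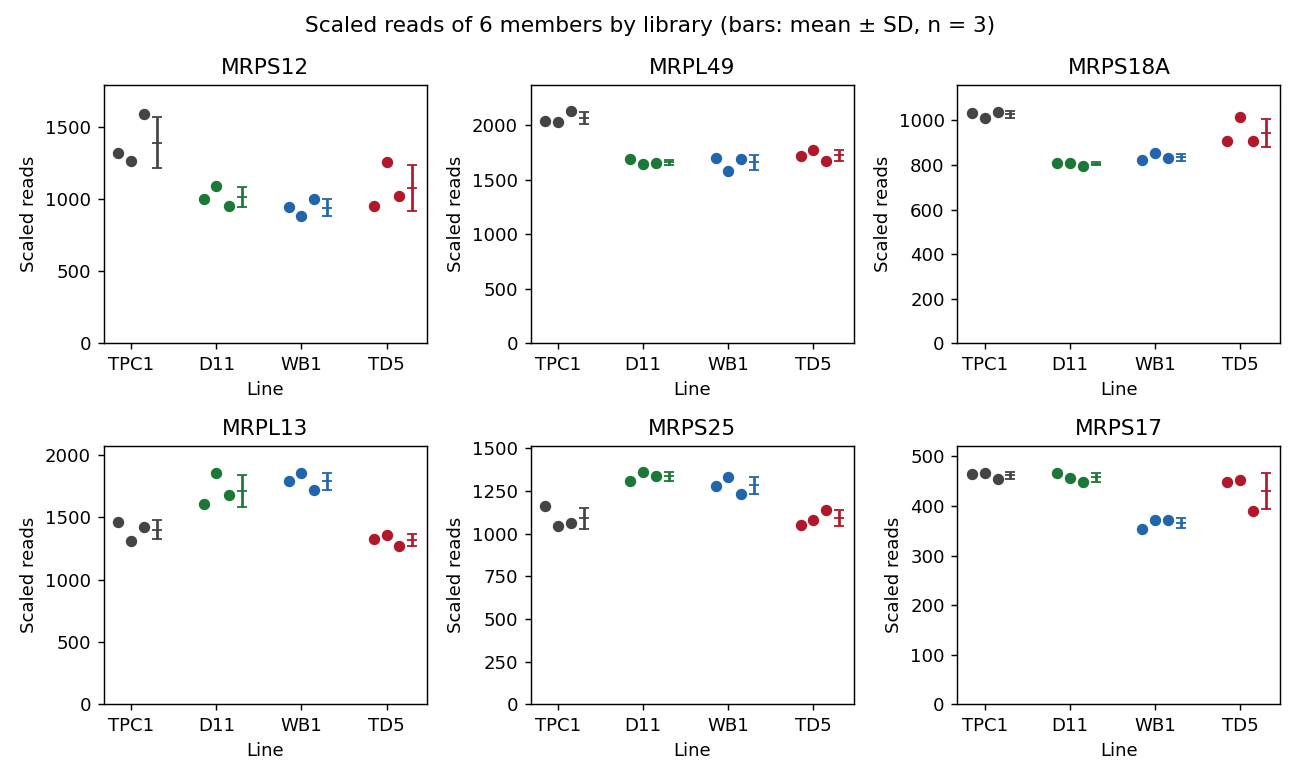
Scaled reads of 6 genes in each library, by line, with the mean ± SD over 3 libraries beside the points. MRPS12 and MRPL49 lie lower in all 9 clone libraries than in TPC1. MRPS18A is lower in D11 and WB1, MRPL13 and MRPS25 are higher in D11 and WB1 and near TPC1 in TD5, and MRPS17 is lower in WB1, where its mean is 365 against 462 in TPC1.

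MRPS18A, MRPS18B and MRPS18C are paralogs that descend from the bacterial S18 gene, and differences between them were not tested. MRPS18A, whose protein sits in the large subunit, stood at 1034, 1010 and 1036 scaled reads in TPC1, at 811, 808 and 797 in D11, at 821, 853 and 829 in WB1 and at 908, 1017 and 907 in TD5. Libraries of D11 and WB1 lay below TPC1 with a wide gap, and TD5 overlapped it, at -0.12 ± 0.065 (SE; limma adjusted p = 0.245). RSPH9, which overlaps MRPS18A on the opposite strand, had values of 629 to 642 in TPC1, 492 to 517 in D11, 495 to 505 in WB1 and 561 to 642 in TD5. MRPS18B, of the small subunit, stood at 2061, 2131 and 2147 in TPC1, at 1858, 1818 and 1793 in D11, at 2196, 1835 and 1938 in WB1 and at 1799, 2121 and 1789 in TD5. It passed in D11 alone, at -0.21 ± 0.074 (limma adjusted p = 0.0381), and that call was lost without any 1 of the TPC1 or D11 libraries, where its values ran from -0.23 to -0.20. MRPS18C, also of the small subunit, stood at 790, 717 and 763 in TPC1, at 778, 891 and 916 in D11, at 945, 942 and 822 in WB1 and at 670, 665 and 804 in TD5. It was higher in WB1, at 0.25 ± 0.089 (limma adjusted p = 0.0437), a call lost without any 1 of the TPC1 libraries, D11 replicate 2, WB1 replicate 1 or WB1 replicate 2, at 0.21 to 0.28, and with the GC correction, at 0.015 (limma adjusted p = 0.874). In TD5 it stood at -0.09 ± 0.089 (limma adjusted p = 0.576).

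Members that differed between TD5 and the other clones included MRPL13 and MRPS25. MRPL13, a large subunit protein with a bacterial counterpart, stood at 1464, 1314 and 1425 scaled reads in TPC1, at 1604, 1858 and 1681 in D11, at 1790, 1856 and 1720 in WB1 and at 1325, 1359 and 1268 in TD5. Its D11 and WB1 libraries lay above all of TPC1 and TD5, which overlapped each other. The log2 fold change was 0.29 ± 0.068 in D11 against TPC1 (SE; limma adjusted p = 0.00509), -0.37 ± 0.068 in TD5 against D11 (limma adjusted p = 0.00109) and -0.44 ± 0.068 in TD5 against WB1 (limma adjusted p = 0.00065). MRPS25, a mitochondria-specific small subunit protein, had the same order. It stood at 1161, 1042 and 1063 in TPC1, at 1308, 1360 and 1334 in D11, at 1281, 1332 and 1234 in WB1 and at 1048, 1081 and 1139 in TD5. Its log2 fold change was 0.29 ± 0.064 in D11 (limma adjusted p = 0.0034) and 0.23 ± 0.064 in WB1 (limma adjusted p = 0.0122), and TD5 differed from D11 by -0.29 ± 0.064 (limma adjusted p = 0.00458) and from WB1 by -0.23 ± 0.064 (limma adjusted p = 0.0252). Without TPC1 replicate 2 or WB1 replicate 2 the WB1 difference was 0.20 and 0.21 and did not pass, and the TD5 against WB1 call was lost without WB1 replicate 1 or 2 or TD5 replicate 1 or 2, at -0.23 to -0.20. With the length correction none of these MRPS25 calls passed. Its annotated exons span 18309 bases, against a median of 2539 over the members. The WB1 and TD5 against WB1 calls of MRPS25 were lost also with the GC correction.

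Between TD5 and D11, 9 members were lower in TD5, or 11.7%, against 14.8% of all genes tested, and 4 were higher, or 5.19%, against 8.43%. The largest differences were those of MRPL42, at -0.40 ± 0.117 (limma adjusted p = 0.0224), MRPL13 and MRPL50, at -0.32 ± 0.095 (limma adjusted p = 0.0221), on the lower side. On the higher side they were those of MRPL28, at 0.32 ± 0.086 (limma adjusted p = 0.013), MRPL55, at 0.29 ± 0.093 (limma adjusted p = 0.0297), and MRPL2, at 0.27 ± 0.081 (limma adjusted p = 0.025). All of these are large subunit proteins. A block for the replicate number was fitted as terms common to all 4 lines, so it was not a pairing of these 2 lines alone. With it, 10 of the 13 calls passed, and MRPL32 (limma adjusted p = 0.0574), MRPL35 (limma adjusted p = 0.0653) and MRPS18C (limma adjusted p = 0.0566) did not. Without D11 replicate 2 or 3 the 13 calls came to 3 and 3, and without TD5 replicate 2 to 4. MRPL13 and MRPS25 were called in each of these. With the GC correction 2 of the 9 falls passed, those of MRPS21 and MRPS25, and 2 of the 4 rises, those of MRPL2 and MRPL28. MRPL42, MRPL13 and MRPL50 then stood at -0.19, -0.15 and -0.061 (limma adjusted p = 0.1, 0.167 and 0.678), and MRPL55 at 0.22 (limma adjusted p = 0.0515). The split was 8 higher to 4 lower with median-of-ratios scaling, 6 to 2 with the GC correction and 5 to 5 with the length correction.

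Between TD5 and WB1, 6 members were lower in TD5, or 7.79%, against 9.12% of all genes tested, and 1 was higher, against 4.52%. After MRPL13, the largest were MRPS36, at -0.39 ± 0.086 (limma adjusted p = 0.00724), and MRPS18C, at -0.33 ± 0.089 (limma adjusted p = 0.0205). The higher one was MRPS2, at 0.26 ± 0.081 (limma adjusted p = 0.045). Without WB1 replicate 1 or 2 the 7 calls came to 3 and 2, and without TD5 replicate 1 or 2 to 3 and 2. MRPL13 and MRPS36 were called in each of these, and the MRPS2 call was lost on leaving out any 1 of 9 of the 12 libraries, at 0.16 to 0.29. With the GC correction only MRPL13 passed of these 7, at -0.25 in limma, while MRPS36 stood at -0.23 (limma adjusted p = 0.0795), MRPS18C at -0.14 (limma adjusted p = 0.109) and MRPS2 at 0.16 (limma adjusted p = 0.121). The split was 4 to 3 with median-of-ratios scaling, 2 to 1 with the GC correction and 3 to 3 with the length correction.

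Between WB1 and D11, 1 member was lower in WB1, against 3.42% of all genes tested, and 0 were higher (limma), against 4.65%. At an unadjusted p under 0.05, 4 were higher and 1 lower, again without a share over all genes beside them. The one called was MRPS17, a small subunit protein with a bacterial counterpart. It stood at 465, 466 and 454 scaled reads in TPC1, at 467, 457 and 448 in D11, at 353, 372 and 371 in WB1 and at 448, 453 and 389 in TD5. The 3 WB1 libraries lay below all others. The log2 difference from D11 was -0.31 ± 0.079 (SE; limma adjusted p = 0.0198), and the call was lost without any 1 of the D11 libraries or WB1 replicate 1 or 3, at -0.32 to -0.29. MRPS17 overlaps NIPSNAP2 on its own strand, which stood at 0.19 in WB1 against TPC1 (limma adjusted p = 0.0755), as well as the gene ENSG00000249773, which was lower there, at -0.35 (limma adjusted p = 0.00589).

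Exonic GC content moved with these differences. Over the 77 genes, Pearson's r between GC content and the log2 fold change was -0.754 in D11, -0.711 in WB1 and -0.33 in TD5 against TPC1. Over the 15879 tested genes with a GC value it was -0.402, -0.387 and -0.072. In TD5 against D11 and against WB1 the sign was turned, at 0.669 and 0.663 over the members and 0.366 and 0.393 over all genes, and in WB1 against D11 it was 0.029. The points share libraries and genes are not independent replicates, so no test was made. Split at the median over all tested genes, 48.0% GC, the 38 GC-rich members had a median log2 fold change of -0.195 in D11 and the 39 GC-poor members 0.046, against -0.08 and 0.175 over all genes. All 15 members lower in D11 were GC-rich and all 5 higher ones GC-poor. In WB1, 8 of the 9 lower were GC-rich, MRPL17 being the exception at 47.6%, and all 9 higher were GC-poor. How all genes called split by GC content is not given here. The trend over all genes had the same direction in both clones, so these counts are not read as particular to the members. The part of GC content in the differences was not tested, but calls with the GC trend removed within libraries can be set beside the others. In D11, 11 of the 15 falls and 1 of the 5 rises passed with that correction, the rise being MRPS25 at 0.19 (limma adjusted p = 0.0195). That rise did not pass with the length correction. In WB1, all 9 falls and 0 of the 9 rises passed (limma). In TD5 both falls passed. Corrected values of MRPS12 were -0.36, -0.49 and -0.33 in D11, WB1 and TD5, and those of MRPL49 were -0.26, -0.30 and -0.23. Those of MRPL13 were 0.03 in D11 (limma adjusted p = 0.814) and 0.12 in WB1 (limma adjusted p = 0.253).

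**Figure D4:**
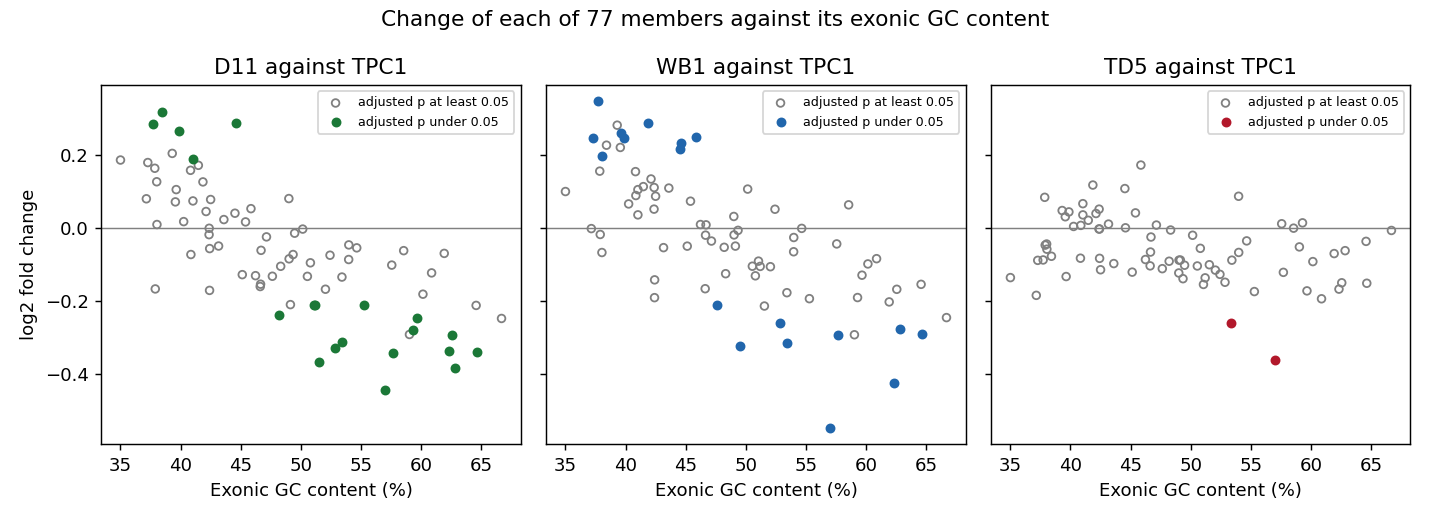
Log2 fold change of each of the 77 genes against TPC1 (vertical) and its exonic GC content in percent (horizontal), for D11, WB1 and TD5. Filled points passed an adjusted p of 0.05 in limma. In D11 and WB1 the GC-poor genes lie higher and the GC-rich genes lower, with r of -0.754 and -0.711, and in TD5 the slope is weaker, with r of -0.33.

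By place in the ribosome, the conserved small subunit proteins counted, of 16, 4 lower and 0 higher in D11, 3 lower and 1 higher in WB1, and 1 lower in TD5. The mitochondria-specific small subunit proteins counted, of 10, 1 lower and 1 higher in D11, 2 higher in WB1, and 0 called in TD5. The conserved large subunit proteins counted, of 29, 6 lower and 3 higher in D11, 3 lower and 3 higher in WB1, and 0 called in TD5. The mitochondria-specific large subunit proteins, among which MRPS18A and MRPS30 are placed, counted, of 21, 4 lower and 1 higher in D11, 3 lower and 2 higher in WB1, and 1 lower in TD5. The medians of the 4 classes lay between -0.101 and 0.009 in the 3 comparisons with TPC1. Over all genes tested, D11 had 13.4% lower and 19.9% higher, WB1 12.3% and 18.6%, and TD5 6.57% and 5.32%, and with so few genes a class nothing is read from its counts.

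Of the 78 genes, 41 overlap an exon of another annotated gene, 18 on the same strand and 30 on the opposite one, and 18 of the 32 members called in any comparison are among them. Values of some such pairs were alike and those of others were not. ENSG00000262660, on the strand of MRPL12, stood at -0.34 in D11 and -0.30 in WB1, beside -0.34 and -0.29 for MRPL12. ENSG00000226706, opposite MRPS2, stood at -0.33 and -0.42, beside -0.34 and -0.42 for MRPS2. NR2C2, opposite MRPS25, stood at 0.38 and 0.32, beside 0.29 and 0.23 for MRPS25. By contrast SSBP3 and CYB5RL, opposite MRPL37, stood at 0.01 and 0.30 in D11, beside -0.33 for MRPL37, and COPB2, opposite MRPS22, stood at -0.01 in WB1, beside 0.29 for MRPS22. How reads were shared between overlapping genes is not given in the sources used here, so values of these members are uncertain by that amount.

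Among other genes of the same machinery, calls were again made below 1.5-fold, and the shares over all genes tested given for the classes above stand beside these counts too. Of 5 ribosomal subunits with other names, 1 was lower in D11 and 1 in WB1 and 0 in TD5, AURKAIP1 in both clones, at -0.24 and -0.27. Of 26 assembly factors, D11 had 6 lower, WB1 had 5 lower and 1 higher, and TD5 had 5 lower. TRUB2, a pseudouridine synthase of mitochondrial RNA, stood at 2043, 2189 and 2045 scaled reads in TPC1 and at 1694 to 1832 in the clones, with log2 fold changes of -0.25, -0.28 and -0.22 in D11, WB1 and TD5 (limma adjusted p = 0.00344, 0.00164 and 0.0145). ERAL1, a GTPase that binds the small ribosomal RNA, and MTG1, a GTPase of large subunit assembly, were also lower in each clone, at -0.31, -0.21 and -0.22 and at -0.35, -0.36 and -0.32. Of 16 translation factors, 5 were higher and 3 lower in D11 and likewise in WB1, and 1 was lower in TD5. TUFM, the elongation factor that brings transfer RNA to the ribosome, stood at -0.26 in D11 and -0.27 in WB1, and MTRF1, a release factor, at 0.53 and 0.57. Of 20 mitochondrial tRNA synthetases, 1 was higher and 2 lower in D11, 2 higher and 1 lower in WB1, and 0 either way in TD5.

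The mitochondrial ribosomal RNAs, which these proteins bind, stood higher. MT-RNR2, the large ribosomal RNA, had 37069, 37587 and 35738 scaled reads in TPC1, while D11 had 50924, 51276 and 51821, WB1 had 53307, 55981 and 49495, and TD5 had 52265, 43876 and 44485. Every clone library lay above TPC1, with log2 fold changes of 0.48 in D11 (limma adjusted p = 6.67e-05), 0.52 in WB1 (limma adjusted p = 3.2e-05) and 0.34 in TD5 (limma adjusted p = 0.00209). MT-RNR1, the small ribosomal RNA, was higher by 0.30 in D11 (limma adjusted p = 0.00855) and 0.40 in WB1 (limma adjusted p = 0.00135), and stood at 0.06 in TD5 (limma adjusted p = 0.67). The libraries were made by selection of polyadenylated RNA, so the levels of these RNAs cannot be compared with those of the messages.

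Of 12 tested regulators of mitochondrial biogenesis out of 13 listed, 5 were higher and 1 lower in D11, and in both WB1 and TD5 2 were higher and 1 lower. YY1 stood at 2343, 2169 and 1920 scaled reads in TPC1, at 2545, 2648 and 2777 in D11, at 2535, 2615 and 2569 in WB1 and at 2664, 2388 and 3036 in TD5, above TPC1 in every clone library, and passed at 0.31, 0.26 and 0.33 (limma adjusted p = 0.00908, 0.0213 and 0.0154). GABPB2, a partner subunit of GABP, stood at 188, 215 and 182 in TPC1, at 271, 264 and 273 in D11, at 370, 339 and 288 in WB1 and at 249, 249 and 309 in TD5. It was the one gene of all these lists that passed 1.5-fold, in WB1, at 0.71 (limma adjusted p = 0.000224), and it was higher by 0.43 in D11 and 0.42 in TD5. PPRC1, a coactivator related to PGC-1, was lower in D11, WB1 and TD5, at -0.39, -0.38 and -0.35. TFAM, GABPB1 and PPARGC1B were higher in D11 alone, at 0.51, 0.24 and 0.28 (limma adjusted p = 0.0129, 0.0448 and 0.0433). Of these, only PPARGC1B passed there with the GC correction. GABPA stood at 0.20, 0.17 and 0.15 in D11, WB1 and TD5 and NRF1 at 0.09, 0.14 and 0.18, and neither passed in any clone. With the GC correction MT-RNR2, YY1, GABPB2, PPRC1, TRUB2, ERAL1 and MTG1 passed in each clone, MT-RNR1 and TUFM in D11 and WB1, MTRF1 in WB1 alone and AURKAIP1 in no clone (limma, adjusted p under 0.05). No relation between the regulators and the members was tested.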

How the data were processed

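RNA from 12 cultured-cell libraries (TPC1, D11, WB1 and TD5, 3 each) was made into stranded, polyadenylated-RNA libraries and sequenced in pairs. Per the submitters' processing notes and the study's methods, the authors aligned reads to GRCh38 with STAR 2.5.3a, counted genes of Ensembl release 90 with HTSeq 0.9.1 and scaled each library to 20000000 aligned reads. The deposited values are thus whole-number scores, scaled gene counts rounded up, which sum to 20009833 to 20014191 a library. Scaling makes depth uneven behind equal totals and bars count models, so the count test planned for raw counts was not used. Values per 1000000 were tested as log2(value + 1) with limma 3.58.1 in R 4.3.3 (variance trend, 1 mean a line, 8 residual degrees of freedom) over the 16027 genes that reached 1 per 1000000 in 3 libraries or more, with Benjamini-Hochberg adjustment. The 6 comparisons were each clone against TPC1 and the clones against each other. GC content and length came from GENCODE 44 exons and were corrected by loess with a span of 0.3 where stated. The code was tested on simulated D11 and TPC1 libraries with 15962 genes tested, where 37 of 50 genes changed 1.5-fold and 50 of 50 changed 2-fold were recovered and 5 others were called. The simulation had even depth, the same dispersion for all genes and no GC trend. It held no change smaller than 1.5-fold, whereas all calls of members lie below that, so it checks the code and not those calls.

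Genes named in full were DICER1, the members with the largest called changes in each comparison, those lower in all 3 clones by call or by order of libraries, the highest and lowest per kilobase, members under the filter, the MRPS18 paralogs, the mitochondrial ribosomal RNAs and listed genes past 1.5-fold. Other listed genes, overlapping genes, MRPS36 as a member outside the ribosome and neighbours were added after their values were seen. The members and lists were chosen with earlier results of these data known. Alternatives were a lower filter and none, other pseudocounts, median-of-ratios scaling, no trend, only the 2 lines compared, a replicate block, corrections for GC content and length, each library left out in turn and, chosen after seeing the data, the block with the GC correction. Libraries of TD5 and D11 with the same number deviated together from their line means (correlations over genes of 0.107, 0.172 and 0.348). No other pair of lines had all 3 above 0.1, so the numbers were taken to pair TD5 and D11 only. Values below 0 reached a like size, at -0.193, -0.127 and -0.127 for D11 and TPC1 and at -0.0682, -0.218 and -0.273 for TD5 and WB1. The correlations thus do not establish a pairing. Nothing in the labels says what a number stands for.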

Additional observations from a re-analysis of the deposited data

Results flagged for a closer look

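The tests between clones are tests of whether the change from TPC1 differed between them, since TPC1 enters both sides alike, and 21 such differences passed (limma, adjusted p under 0.05, 3 libraries a line). The effect on MRPS17 in WB1 was below that in D11 by a log2 difference of -0.309. In TD5 the effects below those in D11 were -0.395 for MRPL42, -0.373 for MRPL13, -0.323 for MRPL50, -0.288 for MRPS25 and -0.268 for MRPS18C. They were -0.265 for MRPL32, -0.241 for MRPS14, -0.222 for MRPL35 and -0.204 for MRPS21. The effects above those in D11 were 0.222 for MRPS18A, 0.266 for MRPL2, 0.294 for MRPL55 and 0.323 for MRPL28. The effects in TD5 below those in WB1 were -0.435 for MRPL13, -0.394 for MRPS36 and -0.335 for MRPS18C. They were -0.241 for MRPL47, -0.237 for MRPS14 and -0.231 for MRPS25, and MRPS2 was above, at 0.257. Of the 21, MRPL13 in TD5 against WB1 was the one called under all 23 alternatives. Outliers within a line were not sought, since a line has 3 libraries.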

How the results depend on the processing

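The 61 calls of members in the 6 comparisons all passed with the filter at 0.5 and with pseudocounts of 0.1 and 4. Of the 61, 44 passed with no filter, 45 with median-of-ratios scaling, 46 without the variance trend, 51 with only the 2 lines compared, 52 with the replicate block, 46 with the length correction, 29 with the GC correction and 26 with the block and the GC correction together. The cause of these losses was not tested. MRPL49 kept its calls in all 3 clones under all 23 alternatives, as MRPS12 did in D11 and WB1. The MRPS12 call in TD5 was lost with no filter (limma adjusted p = 0.0622), without the variance trend (limma adjusted p = 0.0622) and with only the 2 lines compared (limma adjusted p = 0.0651). MRPL47 in WB1 turned to -0.025 with the GC correction, with or without the block.

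Counts of calls moved as follows, and shares over all genes under these settings and with libraries left out are not given beside them. In TD5 against TPC1 there was 1 in place of 2 with no filter, without the trend and with only the 2 lines compared. In TD5 against D11 there were 8 in place of 13 with no filter and with the GC correction, with or without the block. In TD5 against WB1 there were 4 in place of 7 with no filter and without the trend, 2 with only the 2 lines compared, and 3 with the GC correction, with or without the block. The median over members in WB1 against TPC1 was -0.089 with median-of-ratios scaling and -0.094 with the GC correction, with or without the block, in place of -0.025. In TD5 against WB1 it turned from -0.038 to 0.018 with median-of-ratios scaling and to 0.03 with the GC correction, with or without the block. In D11 DICER1 passed at -0.252 with median-of-ratios scaling (limma adjusted p = 0.0456), at -0.425 with the GC correction (limma adjusted p = 8.32e-05, and 0.000252 with the block) and at -0.339 with the length correction (limma adjusted p = 0.00407). The summed level in TPC1 was 4865 per 1000000 with median-of-ratios scaling, in place of 4755. One member, MRPS12 in WB1, passed 1.5-fold with median-of-ratios scaling and without TPC1 replicate 2 or WB1 replicate 3.

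With 1 library left out in turn, members called ranged from 10 to 23 in D11, 8 to 22 in WB1 and 1 to 6 in TD5 against TPC1. They ranged from 0 to 1 in WB1 against D11, 3 to 17 in TD5 against D11 and 2 to 8 in TD5 against WB1. The 0 was found without any 1 of the D11 libraries, WB1 replicate 1 or WB1 replicate 3. The median in TD5 against D11 ranged from -0.02 to 0.072, below 0 without TD5 replicate 2 and, at -0.003, without D11 replicate 3. That in TD5 against WB1 ranged from -0.079 to 0.012, above 0 without TD5 replicate 3. With the replicate block, calls outside TD5 against D11 were lost for MRPL42 and MRPS18B in D11, MRPL47 and MRPS18C in WB1, and MRPS14 and MRPS2 in TD5 against WB1. The numbers were not taken to pair those lines, and no other call changed with the block. Of the members, MRPL23 did not pass the filter, and whether depth or the assignment of its reads sets its values was not tested.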

Other observations

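Of the 68 rows of the family left out as pseudogenes or antisense genes, 65 stayed below 20 scaled reads in every library. The other three were MRPS31P4, at 95 to 155 scaled reads, MRPL45P2, at 63 to 100, and MRPS31P5, at 49 to 99. They were picked after their values were seen, and reads shared with their parent genes would count for either. The antisense gene MRPL23-AS1 was at 0 in all 12 libraries, beside 2 to 19 scaled reads of MRPL23.

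GC content of the MANE Select transcript alone gave Pearson's r with the log2 fold change over the 77 members, which was -0.796 for D11, -0.752 for WB1 and -0.279 for TD5, close to the values over all annotated exons. Against the base-2 logarithm of exonic length r was 0.333, 0.248 and 0.177. These are descriptions over genes that share libraries.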
